A study of Homo sapiens with 12 samples.

Results

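The RNAs described here are the small nuclear RNAs (snRNAs) of the spliceosome and the small Cajal body-specific RNAs (scaRNAs). They were compared between a HNRNPUL1 knockout line (HEK UL1 KO) and wild-type cells (HEK WT). Their genes were picked out of the 61163 rows of the count tables by the start of the symbol (SCARNA, RNVU1 or the RNU names of the U1, U2, U4, U5, U6, U11, U12, U4atac and U6atac RNAs). Of 1830 such rows, 1641 that are named as pseudogenes and 119 numbered copy rows were left out, so that 70 genes remained. They were 24 U1 genes (4 RNU1 genes and 20 variant RNVU1 genes), 1 U2 gene, 2 U4 genes, 5 U5 genes, 5 U6 genes, the single genes of U11, U12, U4atac and U6atac, and 29 scaRNA genes.

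In the major spliceosome, U1 pairs with the 5′ splice site and U2 with the branch point, after which the U4/U6 pair and U5 join and U6 takes part in the catalytic centre. The minor spliceosome removes a rare class of introns with U11, U12, U4atac and U6atac, and shares U5. Most of these RNAs are made by RNA polymerase II, receive a ring of Sm proteins with the help of the SMN complex in the cytoplasm and return to the nucleus through Cajal bodies, whereas U6 and U6atac are made by RNA polymerase III and carry an LSM ring. The scaRNAs reside in Cajal bodies and guide ribose methylation (C/D box) or pseudouridylation (H/ACA box) of the snRNAs, and many are cut out of the introns of host genes. hnRNP UL1, the product of HNRNPUL1, is an RNA-binding protein of the hnRNP U family.

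HEK293T is an established human embryonic kidney cell line that carries a viral large T antigen. HEK UL1 KO was made from HEK293T by CRISPR-Cas9 editing with guides to exons 2 and 3 of HNRNPUL1. The plasmids also carried EGFP or a puromycin resistance gene, and the number of clones behind the line was not given in the sources used here. The sample titles name the HEK WT libraries HEK293T, but the paper's methods give HEK WT as wild-type HEK293. No other treatment of these cells is given. Each genotype was separated into a nucleolar fraction (NO) and a fraction with cytoplasm and the rest of the nucleus (CN), and each of the 4 groups had 3 replicates that the study describes as biological. Libraries of total RNA were sequenced without removal of rRNA, as single reads of 75 bases.

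HNRNPUL1 was low in every HEK UL1 KO library. Its normalised read counts in CN, as CPM (counts scaled to a fixed library size, after TMM), were 17.7, 15.4 and 18.0 in HEK WT and 4.74, 4.79 and 4.86 in HEK UL1 KO, with a log2 fold change of -1.83 (SE 0.08, adjusted p = 2.12e-07, edgeR's quasi-likelihood test). In NO they were 15.2, 21.5 and 9.28 against 4.08, 3.85 and 3.56 (-1.997, SE 0.32, adjusted p = 0.00649, edgeR). Neither fraction showed overlap between the genotypes. Total counts ran from 37141666 to 104040073 per library, of which 55.3 to 78.7% were rRNA and 0.183 to 0.454% were counts of the 70 genes. Among the HEK WT NO libraries replicate 3 differed from the others, with a TMM factor of 1.40 against 0.690 and 0.622. It lay near the HEK UL1 KO NO libraries, which had 1.09 to 1.34. SNORD3A, the U3 snoRNA that works in the nucleolus, was higher in NO than in CN by 4.67 (SE 0.44) in HEK WT and 4.04 (SE 0.33) in HEK UL1 KO on the log2 scale. Of the 3 nucleolar RNAs on the check list, 2 were called higher in NO and 1 lower in each genotype. RMRP gave 1.93 in HEK WT and 1.21 in HEK UL1 KO, but the RNase P RNA RPPH1 gave -2.31 (SE 0.29) and -2.89 (SE 0.19). For 4 cytoplasmic mRNAs the median was -0.82 in HEK WT and -0.995 in HEK UL1 KO. Since these are bulk libraries, fewer cells with an RNA and less of it per cell cannot be told apart.

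Sequences of some of the RNAs are shown so that the species in the comparisons can be recognised. A part used in splicing is marked for U1 and U2 only. They were read from GRCh38 at the positions of RefSeq, on the transcribed strand, and T stands for U. In the lines that follow, capitals mark the Sm-type motif (ATTTNTG or ATTTNTNG, the site bound by the Sm ring) and, where one was searched for, the element that pairs with the pre-mRNA or lies at its junction (ACTTACCTG in U1, GTAGTA in U2). RNU6ATAC held none of the motifs searched.
RNU1-1: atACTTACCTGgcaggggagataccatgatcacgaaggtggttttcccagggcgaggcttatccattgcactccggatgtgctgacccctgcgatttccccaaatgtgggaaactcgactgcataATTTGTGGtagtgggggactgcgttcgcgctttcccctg
RNU2-1: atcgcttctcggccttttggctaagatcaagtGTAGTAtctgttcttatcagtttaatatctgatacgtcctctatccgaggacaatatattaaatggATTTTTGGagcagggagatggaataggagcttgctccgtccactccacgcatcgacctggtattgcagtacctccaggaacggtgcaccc
RNU4-1: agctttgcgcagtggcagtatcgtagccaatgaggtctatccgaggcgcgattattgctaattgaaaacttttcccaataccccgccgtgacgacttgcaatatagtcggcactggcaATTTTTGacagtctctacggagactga
RNU11: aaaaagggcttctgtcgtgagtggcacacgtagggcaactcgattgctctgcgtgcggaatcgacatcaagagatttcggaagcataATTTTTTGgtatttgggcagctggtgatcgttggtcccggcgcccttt
RNU12: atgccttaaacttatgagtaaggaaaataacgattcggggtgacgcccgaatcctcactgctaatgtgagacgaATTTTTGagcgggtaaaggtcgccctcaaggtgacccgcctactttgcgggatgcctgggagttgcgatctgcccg
RNU4ATAC: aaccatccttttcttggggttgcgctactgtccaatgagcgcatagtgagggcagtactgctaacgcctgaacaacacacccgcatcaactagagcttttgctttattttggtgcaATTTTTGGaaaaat
RNU6ATAC: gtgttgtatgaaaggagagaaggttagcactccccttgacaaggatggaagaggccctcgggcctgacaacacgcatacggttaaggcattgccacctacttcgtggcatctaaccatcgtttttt

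RNU1-1 lies at chr1:16514122-16514285 (minus strand), RNU2-1 at chr17:43233790-43233977 (minus) and RNU4-1 at chr12:120293093-120293237 (minus). RNU11 lies at chr1:28648600-28648734 (plus strand), RNU12 at chr22:42615244-42615393 (plus), RNU4ATAC at chr2:121530880-121531009 (plus) and RNU6ATAC at chr9:134164439-134164564 (minus). The Sm-type motif was present in 32 of the 35 genes of U1, U2, U4, U5, U11, U12 and U4atac (91.4%), in 0 of the 6 U6 and U6atac genes and in 2 of the 24 scaRNA genes whose strand was found (8.33%). Of 409 other snoRNA genes of 100 to 200 bases, 21 held it (5.13%). The U1 element was in 12 of 24 U1 genes and 0 of the 409 snoRNA genes, and the U2 element in the 1 U2 gene and 10 of the 409 (2.44%). The transcribed strand alone was searched. The motifs do not overlap in these sequences, and a match is a description of letters.

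The abundant U1 genes, the U4 genes and the U6 genes differ so little from their own copies that reads of 75 bases can fit several of them. Against RNU1-1, the genes RNU1-2, RNU1-3, RNU1-4 and RNVU1-18 are identical over 164 bases and RNVU1-7 differs in 1 position. RNVU1-19 differs in 13 aligned columns, with 92.2% identity. Against RNU4-1, RNU4-2 differs in 4 positions (97.2% identity). In the lines that follow, capitals mark the bases that differ from RNU1-1 or RNU4-1. RNVU1-7 lies at chr1:148038753-148038916 (minus strand), RNVU1-19 at chr1:120850819-120850985 (minus) and RNU4-2 at chr12:120291759-120291903 (minus).
RNVU1-7: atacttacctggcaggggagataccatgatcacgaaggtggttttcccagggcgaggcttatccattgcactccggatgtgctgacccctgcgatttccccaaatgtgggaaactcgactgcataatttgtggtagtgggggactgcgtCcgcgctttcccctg
RNVU1-19: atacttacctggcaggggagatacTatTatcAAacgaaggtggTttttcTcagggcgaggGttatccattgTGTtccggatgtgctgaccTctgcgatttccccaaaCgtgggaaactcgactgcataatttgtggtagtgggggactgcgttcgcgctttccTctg
RNU4-2: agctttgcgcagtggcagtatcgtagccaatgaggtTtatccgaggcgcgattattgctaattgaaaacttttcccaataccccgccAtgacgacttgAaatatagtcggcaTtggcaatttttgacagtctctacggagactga

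The 6 U1 genes of this identical or nearly identical group held 97.5 to 98.9% of all U1 counts, with 11453 to 21122 counts each per library and 0.939 to 1.14 times the count of RNU1-1. The other 18 U1 genes had 0 to 1922 counts each. The 5 U6 genes differ from RNU6-1 in at most 1 position. How a read that fits several copies was counted was not given in the sources used here, and values of single copies are uncertain for that reason. The pseudogene rows RNU2-2P and RNU1-27P, which are outside the 70 genes, had 76.4 to 131% and 93.4 to 122% of the counts of RNU2-1 and RNU1-1. Each class was therefore also tested as the sum of its genes.

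Per kilobase of RNA, RNU2-1 had the highest level of the single genes shown, with 5768 ± 691 CPM per kb in HEK WT CN (SD, n = 3), above RNU1-1 with 1371 ± 161. RNU4-1 stood at 484 ± 113, RNU6ATAC at 202 ± 47.3, RNU6-1 at 197 ± 30.2 and RNU5A-1 at 156 ± 46.7 CPM per kb, and the last 3 lay within their spread of each other. RNU4ATAC had 103 ± 9.53, RNU11 67.1 ± 8.07 and RNU12 41.1 ± 4.53 CPM per kb. Levels of scaRNAs were lower, for instance 12.4 ± 1.82 CPM per kb for SCARNA28, 10.1 ± 1.58 for SCARNA1 and 8.27 ± 1.30 for SCARNA7. The level of a single U1, U4, U5 or U6 gene is a part of the level of its class, and identical or nearly identical copies share reads. Summed over their genes, U6 had 126 ± 32.1 CPM and U5 100 ± 20.2 CPM in HEK WT CN, against 25.5 ± 5.96 CPM for U6atac (SD, n = 3).

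**Figure D1:**
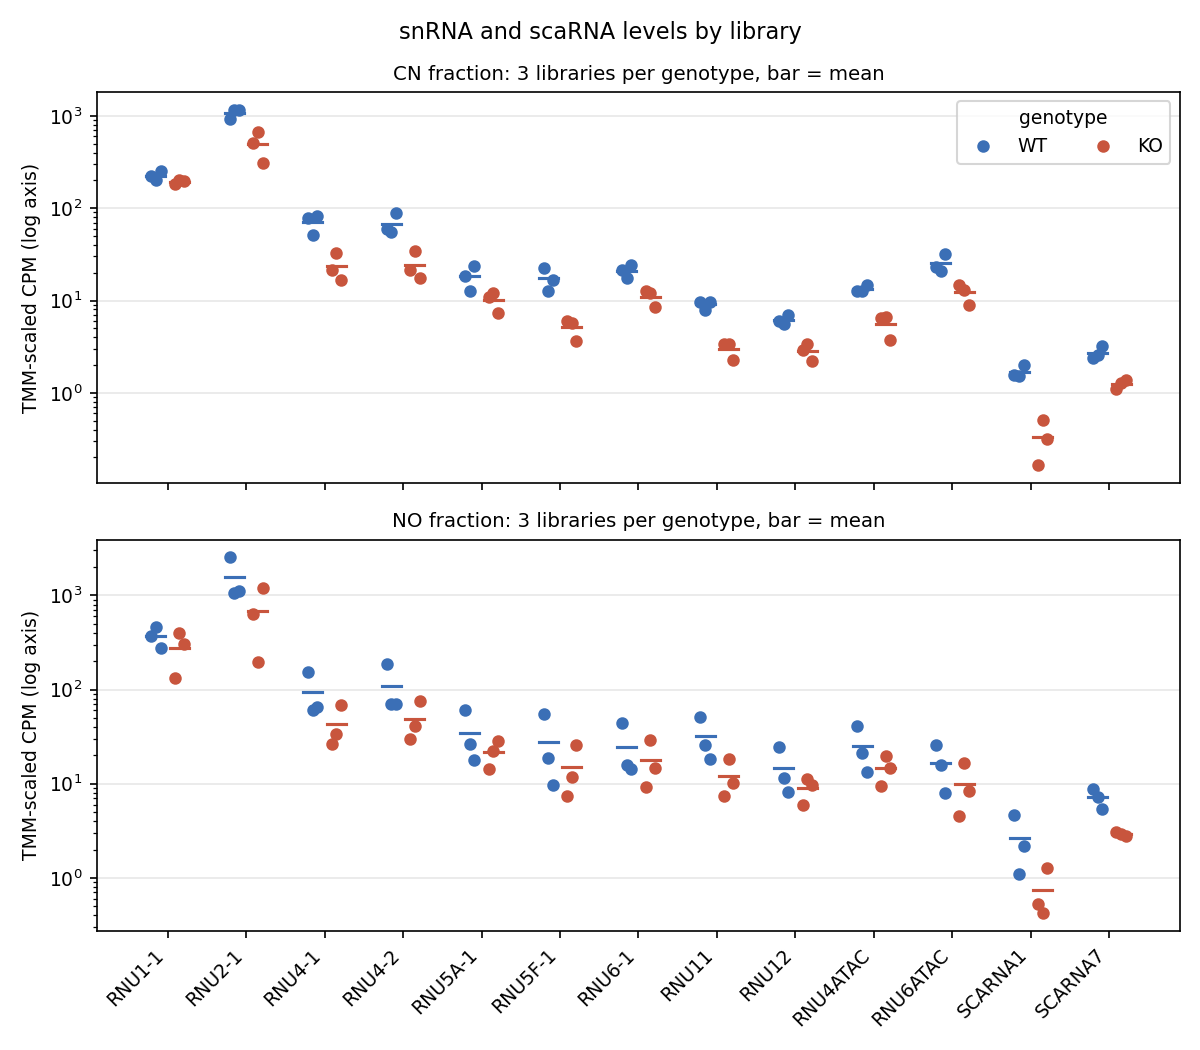
Normalised read counts of single snRNA genes, SCARNA1 and SCARNA7 in each of the 12 libraries. Values are CPM after TMM scaling within each fraction (log axis), with HEK WT and HEK UL1 KO side by side in CN and NO. In CN the HEK UL1 KO points of the genes of U2, U4, U5, U6, U11, U12, U4atac and U6atac lie under all HEK WT points. In NO these genes overlap between the genotypes.

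The CN comparison asks which of these RNAs differed between genotypes outside the nucleolus. In HEK UL1 KO, 27 of the 59 genes tested were lower and 0 were higher, and 11 genes were too low in counts to be tested. Over all 27234 genes tested in CN, 22.3% were called lower and 15.6% higher. The decrease was uneven between classes: 16 of 17 snRNA genes other than U1 fell, against 2 of 18 U1 genes and 9 of 24 scaRNA genes. The median log2 fold changes of these sets were -1.14, -0.26 and -0.40, beside 0.04 for all genes. In 31 of the 59 genes every HEK UL1 KO library was below every HEK WT library, which held for 28.1% of all genes. Scaled by total counts, 22 of the 59 were lower and 0 higher while the calls over all genes went from 4254 higher and 6070 lower to 3700 higher and 1730 lower, and the median of all genes moved from 0.04 to 0.24.

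U1, which defines the 5′ splice site, showed small differences between the genotypes in CN. RNU1-1 had 221, 201 and 253 CPM in HEK WT and 183, 200 and 198 CPM in HEK UL1 KO, with a log2 fold change of -0.21 (SE 0.10, adjusted p = 0.127, edgeR). The HEK UL1 KO values lay just below the lowest HEK WT value. RNVU1-18, with the same sequence, had 219, 217 and 259 against 194, 206 and 193 CPM (-0.23, SE 0.10, adjusted p = 0.0898, edgeR). RNU1-2 had 230, 199 and 246 against 185, 203 and 198 CPM and overlapped. The 6 abundant copies had log2 fold changes from -0.28 to -0.14 and none was called. The summed U1 counts gave -0.19 (SE 0.13, adjusted p = 0.287, edgeR), and this value was 0.0099 when libraries were scaled by total counts, 0.012 when scaled by snoRNA counts and -0.55 when scaled by GAPDH. GAPDH itself was higher in HEK UL1 KO CN (0.34, SE 0.11, adjusted p = 0.0275, edgeR). Scaling by GAPDH moved the median of all genes to -0.31, and total counts and snoRNA counts moved it to 0.24. Both U1 genes that were called are rare variants: RNVU1-19 (-0.82, SE 0.23, adjusted p = 0.0164, edgeR) with 0.961, 0.717 and 0.922 against 0.615, 0.426 and 0.422 CPM, and RNVU1-3 (-1.95, SE 0.53, adjusted p = 0.0143, edgeR) with a mean of 9.5 counts per library.

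U2, which pairs with the branch point, was lower in each HEK UL1 KO library. RNU2-1 had 934, 1164 and 1155 CPM in HEK WT and 506, 666 and 308 CPM in HEK UL1 KO, a fall by 1.14 on the log2 scale (SE 0.23, adjusted p = 0.00311, edgeR). The groups did not overlap, and HEK UL1 KO replicate 3 was the lowest. U4, the partner that keeps U6 inactive until the spliceosome is activated, showed the largest decrease of the major classes. RNU4-1 had 77.5, 51.4 and 81.7 CPM in HEK WT and 21.4, 32.4 and 16.7 CPM in HEK UL1 KO (-1.58, SE 0.23, adjusted p = 0.000377, edgeR). Its near copy RNU4-2 went from 59.8, 55.0 and 89.4 to 21.4, 34.7 and 17.5 CPM (-1.47, SE 0.24, adjusted p = 0.00085, edgeR). In both, each HEK UL1 KO library was below each HEK WT library.

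All 5 genes of U5, which aligns the exons at the catalytic centre in both spliceosomes, fell in CN. RNU5F-1 had 22.7, 12.8 and 16.8 CPM in HEK WT and 6.03, 5.72 and 3.68 CPM in HEK UL1 KO (-1.76, SE 0.21, adjusted p = 0.000127, edgeR). RNU5D-1 had 17.6, 14.8 and 17.3 against 6.26, 6.47 and 3.39 CPM (-1.62, SE 0.19, adjusted p = 0.000101, edgeR). Neither gene showed overlap. RNU5E-1 fell by 1.21, RNU5B-1 by 0.99 and RNU5A-1 by 0.85 on the log2 scale, the last from 18.6, 12.7 and 23.6 to 10.9, 12.1 and 7.37 CPM with a gap of less than 1 CPM between the groups. The U5 copies are 76.1 to 94.0% identical to RNU5A-1. Whether the copies differed from each other in their fold change was not tested.

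Of the 5 U6 genes, 4 fell. RNU6-1 had 21.5, 17.7 and 24.1 CPM in HEK WT and 12.6, 12.05 and 8.42 CPM in HEK UL1 KO (-0.93, SE 0.15, adjusted p = 0.000743, edgeR), with no overlap. RNU6-7 had 25.5, 18.0 and 47.2 against 13.5, 13.4 and 9.38 CPM (-1.32, SE 0.29, adjusted p = 0.00447, edgeR). RNU6-9 and RNU6-2, identical to RNU6-1, fell by 0.83 and 0.72. RNU6-8 ran from 19.4 to 45.3 CPM in HEK WT and from 11.4 to 33.8 CPM in HEK UL1 KO, overlapped and was not called (-0.76, adjusted p = 0.128, edgeR). Its counts were 1.10 to 4.57 times those of RNU6-1, although the sequences differ in 1 position.

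The 4 RNAs that belong to the minor spliceosome all fell in CN, and none of them showed overlap between the genotypes. U11, which recognises the 5′ splice site of minor introns, had 9.64, 7.80 and 9.74 CPM in HEK WT and 3.36, 3.37 and 2.28 CPM in HEK UL1 KO (-1.59, SE 0.15, adjusted p = 2.15e-05, edgeR). U12, the counterpart of U2, had 6.04, 5.56 and 6.90 against 2.88, 3.41 and 2.21 CPM (-1.11, SE 0.15, adjusted p = 0.000209, edgeR). Within both genotypes the libraries of these RNAs lay close together. U4atac, the counterpart of U4, had 12.7, 12.7 and 14.9 against 6.39, 6.58 and 3.73 CPM (-1.26, SE 0.17, adjusted p = 0.000272, edgeR). U6atac, the counterpart of U6, had 23.4, 20.9 and 32.2 against 14.7, 13.2 and 9.02 CPM (-1.05, SE 0.19, adjusted p = 0.00133, edgeR).

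With the genes of a class summed, U2 fell by 1.11 (SE 0.23, adjusted p = 0.00323), U4 by 1.51 (SE 0.23, adjusted p = 0.000512), U5 by 1.19 (SE 0.20, adjusted p = 0.00103) and U6 by 0.89 (SE 0.22, adjusted p = 0.00811) in CN, each by edgeR. In one fit of all 12 libraries the U2 and U6 sums gave -1.22 (adjusted p = 0.130, edgeR) and -1.001 (adjusted p = 0.138, edgeR) and were not called. Under all other settings tried the 4 sums stayed negative, between -1.47 and -0.87 for U2, -1.84 and -1.29 for U4, -1.52 and -0.98 for U5 and -1.22 and -0.68 for U6.

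**Figure D2:**
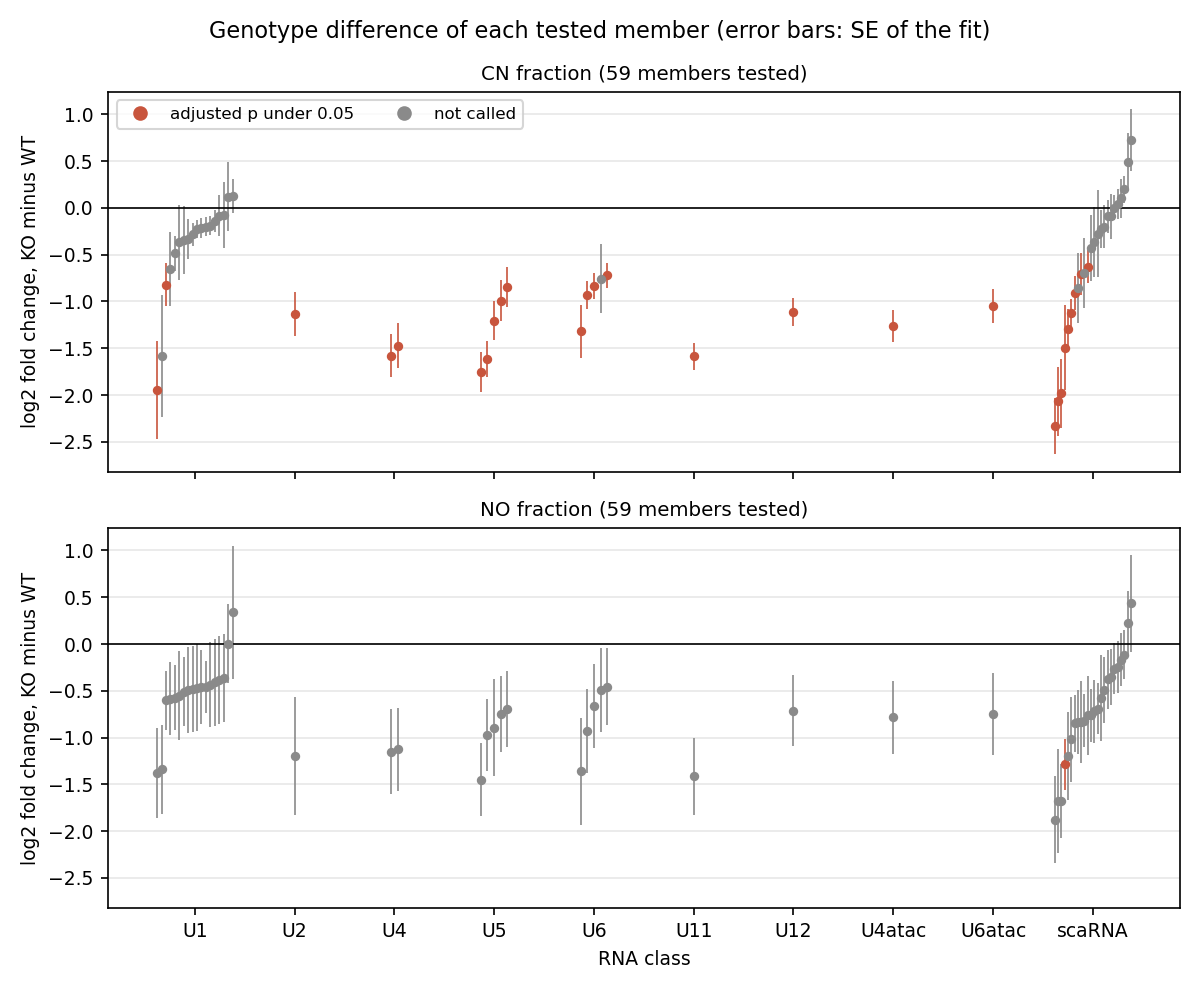
Log2 fold change, HEK UL1 KO minus HEK WT, of each gene tested in CN and in NO, by class, with points marked where the adjusted p was under 0.05. In CN the snRNA genes other than U1 lie between -1.76 and -0.72, the abundant U1 genes lie near 0 and the scaRNA genes spread from -2.34 to 0.72.

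The ratio of each class to U1 within a library does not depend on how libraries are scaled. In CN, U2 counts were 0.687, 0.938 and 0.739 times the U1 counts in HEK WT and 0.446, 0.537 and 0.252 times in HEK UL1 KO. The ratio of U4 to U1 went from 0.0987 ± 0.0120 to 0.0399 ± 0.0132 (SD, n = 3 in each genotype) and that of U5 from 0.0717 ± 0.0081 to 0.0361 ± 0.0106. U11 went from 0.00654 ± 0.00048 to 0.00251 ± 0.00058 times U1 and U12 from 0.00444 ± 0.000032 to 0.00236 ± 0.00050. The groups did not overlap for U2, U4, U5, U11, U12, U4atac, U6atac and the summed scaRNAs. Each gave p = 0.1 by an exact two-sided permutation test, the smallest p that 3 libraries against 3 allow. U1 had the smallest change of the class sums in CN, so these ratios are not separate evidence for the falls given above. The ratio of U6 to U1 overlapped (0.0900 ± 0.0134 against 0.0563 ± 0.0184, exact permutation p = 0.2). U1 made up 47.5% of the counts of the 70 genes in HEK WT CN and 63.9% in HEK UL1 KO CN, and U2 made up 37.2% and 25.5%. These U2 values leave out RNU2-2P, which had 76.4 to 131% of the counts of RNU2-1. The U1 values leave out RNU1-27P and RNU1-28P, with 93.4 to 122% and 88.7 to 111% of the counts of RNU1-1. The ratios and shares therefore hold for the 70 genes only.

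**Figure D3:**
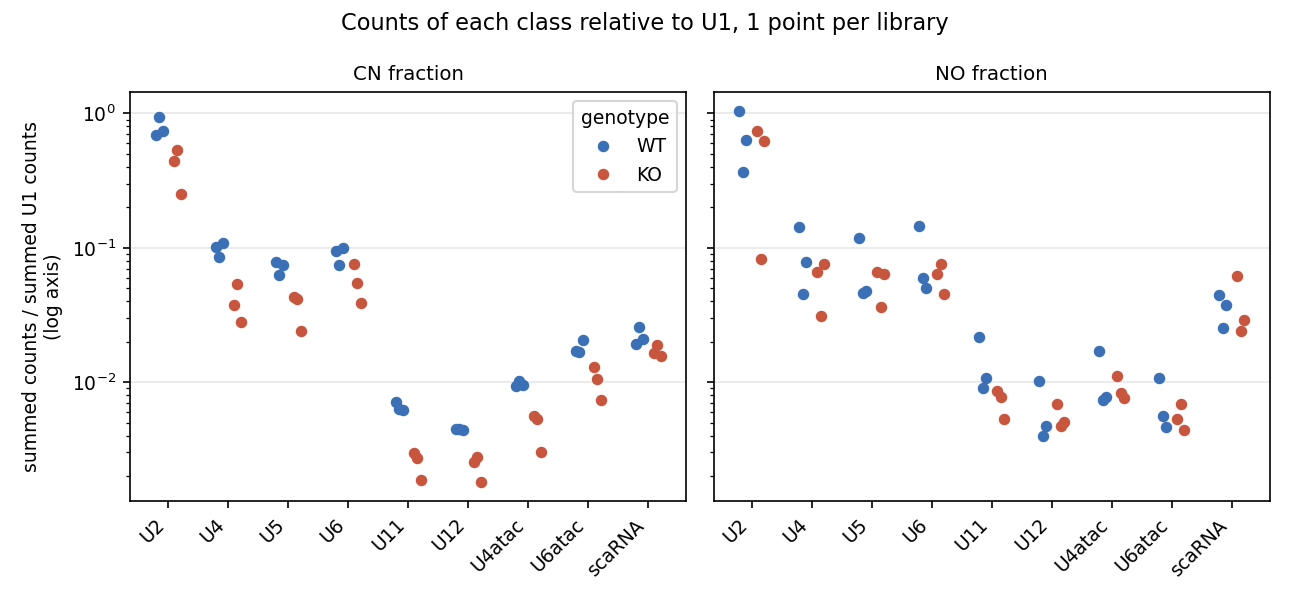
Counts of each class divided by the U1 counts of the same library, in HEK WT and HEK UL1 KO, for CN and NO (log axis, 1 point per library). In CN the HEK UL1 KO ratios of U2, U4, U5, the 4 minor snRNAs and the summed scaRNAs lie under the HEK WT ratios. In NO U11 alone is free of overlap.

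The scaRNAs did not move as a block in CN. Of the 24 tested, 9 fell, 0 rose and 15 were not called, with log2 fold changes from -2.34 to 0.72. SCARNA1, an H/ACA box RNA, had 1.55, 1.51 and 1.98 CPM in HEK WT and 0.164, 0.506 and 0.320 CPM in HEK UL1 KO (-2.34, SE 0.30, adjusted p = 0.000173, edgeR), with no overlap. SCARNA8 (-2.07, SE 0.37, adjusted p = 0.00139), SCARNA3 (-1.98, SE 0.37, adjusted p = 0.00185) and SCARNA18 (-1.49, SE 0.45, adjusted p = 0.0251) also fell by edgeR's test, though their means were 35.8, 15.3 and 23 counts per library. The better counted SCARNA16 went from 4.88, 7.20 and 5.05 to 2.09, 3.18 and 1.64 CPM (-1.30, SE 0.22, adjusted p = 0.00109, edgeR) and SCARNA7 from 2.39, 2.59 and 3.21 to 1.09, 1.28 and 1.38 CPM (-1.13, SE 0.16, adjusted p = 0.000278, edgeR). SCARNA5, SCARNA4 and SCARNA6 fell by 0.91, 0.71 and 0.63. The call was lost in 9 of 17 alternatives for SCARNA4 and in 6 of 17 for SCARNA6. With the replicate block SCARNA4 (adjusted p = 0.0814) and SCARNA18 (adjusted p = 0.0631) were not called by edgeR, and SCARNA18 lost its call in 6 of 16 alternatives. Leaving out HEK WT replicate 3 or any HEK UL1 KO library ended the call of SCARNA4 (-0.86 to -0.40 over the 6 libraries left out in turn). HEK WT replicate 2 or HEK UL1 KO replicate 1 or 3 did so for SCARNA6 (-0.76 to -0.50), and HEK WT replicate 3 or HEK UL1 KO replicate 1 or 3 for SCARNA18 (-2.23 to -1.12). Summed over the 29 genes, the scaRNAs had 26.2, 31.9 and 32.6 CPM in HEK WT and 18.7, 23.3 and 19.1 CPM in HEK UL1 KO, without overlap after TMM scaling but with overlap when divided by total counts. Relative to U1 they were at 0.0219 ± 0.0034 and 0.0170 ± 0.0016 (SD, n = 3, exact permutation p = 0.1), without overlap.

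Several other scaRNAs overlapped between the genotypes and were not called. SCARNA28 had 2.03, 2.46 and 2.73 CPM in HEK WT and 2.28, 2.40 and 2.56 CPM in HEK UL1 KO, with a log2 fold change of 0.00 (SE 0.13). SCARNA13 gave -0.09 (SE 0.18), SCARNA9 0.04 (SE 0.16), SCARNA22 -0.09 (SE 0.24) and SCARNA10 0.20 (SE 0.15). SCARNA12 and SCARNA21 were above HEK WT in every HEK UL1 KO library but were not called (0.48, adjusted p = 0.239 and 0.72, adjusted p = 0.110, edgeR). Where the kind was listed, 6 of 11 H/ACA scaRNAs fell (median -0.86), 1 of 3 C/D scaRNAs (median -0.23) and 2 of 4 that carry both boxes (median -0.22), and no difference between the kinds was tested.

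The H/ACA scaRNAs shown next set 3 with a large fall beside SCARNA22, which had none. In each line capitals mark the ACA box close to the 3′ end, which was found in 13 of 13 H/ACA scaRNAs, 3 of 11 other scaRNAs (27.3%) and 213 of 409 other snoRNA genes (52.1%) as the letters ACANNN at the end. SCARNA1 lies at chr1:27834401-27834566 (plus strand), SCARNA8 at chr9:19063656-19063786 (minus), SCARNA16 at chr17:77089307-77089493 (plus) and SCARNA22 at chr4:1974636-1974760 (plus).
SCARNA1: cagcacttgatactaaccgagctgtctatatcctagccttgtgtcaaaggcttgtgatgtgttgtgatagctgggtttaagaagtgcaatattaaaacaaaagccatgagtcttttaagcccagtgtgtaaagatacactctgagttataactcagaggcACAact
SCARNA8: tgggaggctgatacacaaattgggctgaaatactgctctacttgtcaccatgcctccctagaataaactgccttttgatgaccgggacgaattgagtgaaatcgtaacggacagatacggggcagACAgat
SCARNA16: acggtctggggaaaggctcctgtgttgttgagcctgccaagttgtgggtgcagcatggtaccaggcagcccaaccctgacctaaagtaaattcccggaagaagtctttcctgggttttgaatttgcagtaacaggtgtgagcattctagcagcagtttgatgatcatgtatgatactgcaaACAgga
SCARNA22: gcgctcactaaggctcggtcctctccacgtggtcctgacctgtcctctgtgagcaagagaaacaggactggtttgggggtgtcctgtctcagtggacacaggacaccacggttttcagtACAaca

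The containing gene of the same strand was looked up in the GENCODE v44 annotation. Each of the 24 scaRNA genes whose strand was found lies inside such an annotated gene, and the other 5 (SCARNA26A, SCARNA26B, SCARNA27, SCARNA28 and SCARNA9L) could not be assessed. For SCARNA2 and SCARNA15 this was a long non-coding RNA entry without a gene symbol, and whether it is a separate host was not tested. Position inside an intron was not checked. For 17 of the 24 both the scaRNA and the containing gene were tested in CN. All 9 scaRNAs that fell lie in genes that were also called lower, 8 genes in all since ATG16L1 holds both SCARNA5 and SCARNA6. The containing gene was called lower in 11 of the 17 pairs and higher in 4, beside 22.3% and 15.6% of all genes tested in CN. PPP1R8, which holds SCARNA1, had a log2 fold change of -1.07, HAUS6 with SCARNA8 -1.27, KPNA4 with SCARNA7 -0.93 and COP1 with SCARNA3 -0.90. The fall was smaller in TMEM167A with SCARNA18 (-0.48), ATG16L1 (-0.45), KHDC4 with SCARNA4 (-0.45) and SEC14L1 with SCARNA16 (-0.44). The genes that hold the 8 scaRNAs without a call were higher in 4 cases (NSD2 0.22 with SCARNA22, PHB2 0.38 with SCARNA12, NCAPD2 0.40 with SCARNA10 and CHD3 0.52 with SCARNA21), lower in 2 (CEP295 -0.45 with SCARNA9 and POLA1 -0.25 with SCARNA23) and not called in 2.

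In 13 of these 17 pairs the scaRNA had the lower log2 fold change of the pair. Across the pairs the log2 fold changes had a Spearman correlation of 0.84 in CN (n = 17) and 0.87 in NO (n = 18). The points share the same libraries, and reads from an intron of the host can fall on the scaRNA, which cannot be told apart in these counts. Since the strand setting of the counting was not given, the same holds for any transcript on the other strand. In NO, SCARNA7 was called lower but its containing gene KPNA4 was not (-1.03, adjusted p = 0.124, edgeR). HAUS6 was called lower in NO (-1.60, adjusted p = 0.0368, edgeR), but SCARNA8 inside it was not (adjusted p = 0.0510, edgeR). These pairs were described after earlier results of the same data were known.

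**Figure D4:**
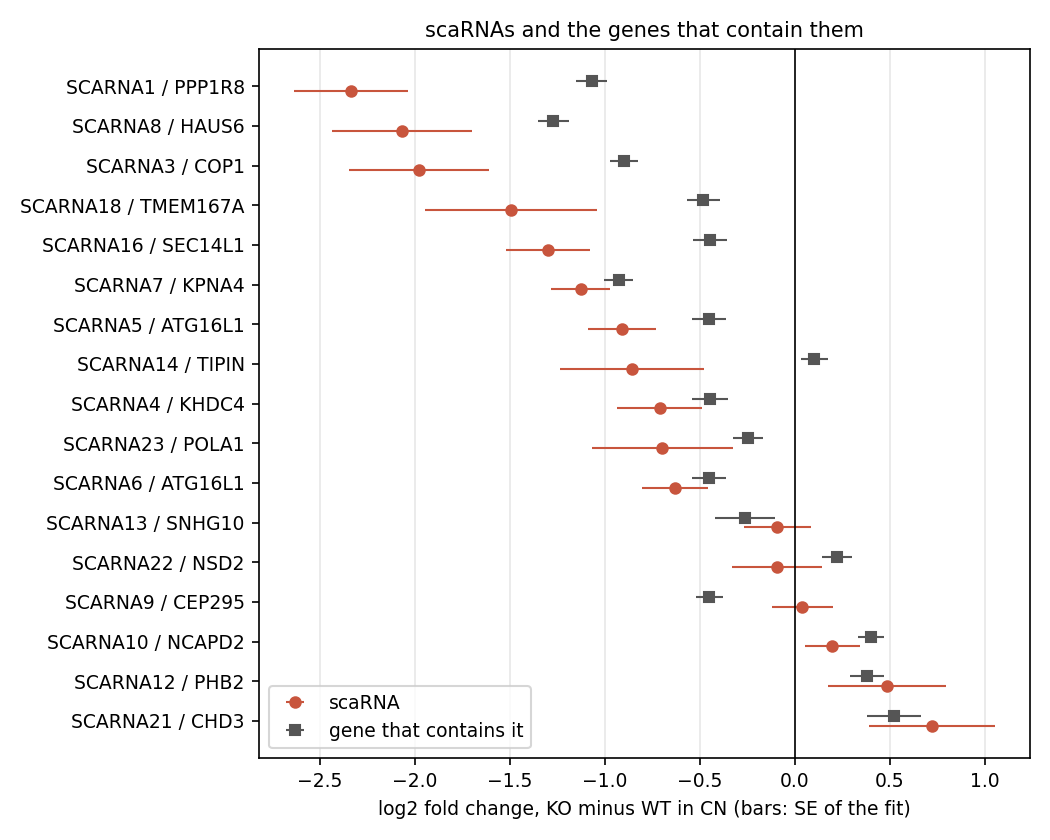
Log2 fold change in CN, HEK UL1 KO minus HEK WT, of each scaRNA and of the same-strand gene that contains it. Each pair has its own row, and the horizontal axis gives the values with the SE of the fit. SCARNA1 and SCARNA8 have the lowest values, at -2.34 and -2.07, in genes at -1.07 and -1.27.

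Shorter scaRNAs had the lower medians. In CN 6 of 15 scaRNAs under 200 bases fell (median -0.70) and 3 of 9 longer ones (median -0.20), and in NO the medians were -0.80 over 14 shorter and -0.36 over 10 longer scaRNAs. The Spearman correlation between length and log2 fold change over all 59 genes tested was 0.40 in CN and 0.36 in NO. Over the 24 scaRNAs it was 0.24 in CN and 0.32 in NO, and over the 17 snRNA genes other than U1, which span a narrow range of lengths, -0.34 and -0.23. These are correlations across genes of the same libraries, and the part of length in the results was not tested. The length groups of the scaRNAs also follow the box kinds in large part, so length and box kind cannot be told apart here.

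Several other kinds of short RNA also had larger shares of lower genes in HEK UL1 KO CN than the 22.3% of all genes, and SNORD genes did not. Of 84 SNORA genes tested, 58 were lower (median -1.13), and of 105 SNORD genes 24 were lower and 2 higher (median -0.58), a share close to that of all genes. Of 209 tRNA genes 149 were lower (median -1.19). Among 13 other short non-coding RNAs 5 were lower, among them RNY5 (-2.09), RNY1 (-1.53) and RNY4 (-1.11), which are Y RNAs bound by Ro60, and the RNase P RNA RPPH1 (-0.66). The Y RNA RNY3 was not called (-0.30, SE 0.19, adjusted p = 0.238, edgeR) and overlapped between the genotypes. RN7SK, the RNA that holds the elongation factor P-TEFb inactive, had a log2 fold change of 0.29 (SE 0.13, adjusted p = 0.0943, edgeR). What recovery of short RNA in the libraries contributed to the values of the snRNAs was not tested.

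The messenger RNAs of the proteins that make and hold snRNPs had medians nearer to 0 than the snRNAs other than U1 in CN. Of the 10 genes of the SMN complex, which loads the Sm ring, 6 were lower and 1 higher (median -0.39), with GEMIN7 at -0.78 (SE 0.19), SMN2 and its near copy SMN1 at -0.61 (SE 0.08 and 0.09) and STRAP at 0.30 (SE 0.07). Of 10 genes for Sm protein methylation, the cap and snRNA transport, 7 were lower and 0 higher (median -0.35), with the export receptor gene XPO1 at -0.65 (SE 0.08), the cap-binding gene NCBP1 at -0.56 (SE 0.07) and the methyltransferase gene PRMT5 at -0.53 (SE 0.09). Of 12 genes for Cajal body and scaRNP proteins, 7 were lower and 0 higher (median -0.29), with the pseudouridine synthase gene DKC1 at -0.67 (SE 0.09), GAR1 of the same particle at -0.65 (SE 0.11) and the coilin partner gene USPL1 at -0.50 (SE 0.07). These shares lie above the 22.3% of all genes called lower.

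For the other steps of the pathway the shares of genes called lay near those of all genes, 22.3% lower and 15.6% higher, so the counts are a description and not a result about these lists. Of the 8 Sm core genes 1 was lower (SNRPE, -0.78) and 1 higher, and of the 7 genes of the LSM ring of U6, LSM3 (-0.41) and LSM8 (-0.30) were lower and LSM6 (0.41) higher. Among 10 genes for snRNA gene transcription 3 were lower (POU2F1 -0.50 and SNAPC3 -0.45 among them) and 2 higher (SNAPC5 0.94 among them). Of 14 Integrator genes, which cleave the 3′ ends of snRNA transcripts, 4 were lower (INTS7 -0.67 and INTS8 -0.63 among them) and 1 higher (INTS9 0.38). For 9 genes of end maturation and of U6 and 7SK factors, 3 were lower and 0 higher. Of 30 genes for proteins of the major snRNPs, 9 were lower (SF3A1 -0.55, SF3B4 -0.48 and SF3B1 -0.47 among them) and 3 higher (SNRNP200 0.47 and SNRPA1 0.45 among them). Of 13 minor spliceosome protein genes, 3 were lower (SNRNP48 -0.92 and CENATAC -0.42 among them) and 1 higher (PDCD7 0.49).

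In NO the same comparison asks whether these RNAs differed in the nucleolar fraction. Of 59 genes tested, SCARNA7 alone was called, and it was lower: 8.69, 7.29 and 5.44 CPM in HEK WT against 3.04, 2.94 and 2.79 CPM in HEK UL1 KO (-1.29, SE 0.27, adjusted p = 0.0347, edgeR), with no overlap. The call was lost in 11 of 17 alternatives, with values up to -0.44 and an adjusted p up to 0.729 by edgeR, among them the replicate block (adjusted p = 0.131, edgeR) and leaving out any NO library other than HEK WT replicate 3. No gene was called higher. Over all 34836 genes tested in NO, 0.574% were called lower and 0.365% higher. At an unadjusted p under 0.05, 20 of the 59 were lower, beside 9.81% of all genes, and 11 had all HEK UL1 KO libraries below all HEK WT libraries, beside 9.17%. The log2 fold change was negative in 55 of the 59 genes, beside 49.7% of all genes, with a median of -0.69 against 0.00 for all genes, but the number of negative values was 38 when libraries were scaled by total counts and 18 when scaled by U3 or by snoRNA counts, settings that moved the median of all genes to 0.40, 0.83 and 0.79.

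The spread between NO replicates was wide for the abundant RNAs. RNU2-1 had 2529, 1057 and 1106 CPM in HEK WT and 641, 196 and 1209 CPM in HEK UL1 KO, and the groups overlapped. RNU4-1 had 155, 61.0 and 65.1 against 26.7, 33.7 and 68.4 CPM, and RNU1-1 371, 464 and 274 against 134, 396 and 304 CPM. HEK WT replicate 1 was the highest NO library for U2, U4 and U5. The sums gave -0.44 for U1, -1.20 for U2, -1.14 for U4, -0.90 for U5 and -0.91 for U6, none of which was called (adjusted p from 0.248 to 0.711, edgeR).

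RNU11 had 51.7, 25.7 and 18.4 CPM in HEK WT NO and 7.38, 18.4 and 10.2 CPM in HEK UL1 KO NO (-1.42, SE 0.41, adjusted p = 0.109, edgeR), and the lowest HEK WT and the highest HEK UL1 KO values overlapped at 18.4 CPM. Relative to U1 it was the single class without overlap in NO, at 0.0137 ± 0.0068 against 0.00719 ± 0.00170 (SD, n = 3, exact permutation p = 0.1). SCARNA8 gave -1.68 (SE 0.39, adjusted p = 0.0510) and SCARNA1 -1.88 (SE 0.46, adjusted p = 0.0629) in NO by edgeR. SCARNA1 ran from 1.11 to 4.67 CPM in HEK WT and from 0.423 to 1.26 CPM in HEK UL1 KO and overlapped, and SCARNA8 did not overlap. The scaRNAs summed over the 29 genes had 108, 72.8 and 65.1 CPM in HEK WT NO and 53.0, 57.3 and 56.1 CPM in HEK UL1 KO NO. They did not overlap after TMM scaling but did when divided by total counts, and relative to U1 they were at 0.0359 ± 0.0098 and 0.0382 ± 0.0204 (SD, n = 3, exact permutation p = 1). None of the genes on the 10 lists of the snRNP pathway was called in NO.

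One library decided the number of calls in NO. Without HEK WT replicate 3, 29 of 62 genes were lower and 0 higher, made up of 13 of 17 snRNA genes other than U1, 4 of 19 U1 genes and 12 of 26 scaRNA genes. Calls over all genes rose as well, to 5546 lower and 3587 higher of 36336. RNU11 then gave -1.71 (SE 0.36, adjusted p = 0.00502, edgeR) and RNU4-1 -1.34 (SE 0.41, adjusted p = 0.0270, edgeR). HEK WT replicate 3 also had the highest share of snoRNA counts among the HEK WT NO libraries, 5.05% against 3.54 and 2.69%. In the scaling of all NO libraries its TMM factor, 1.40, lay near those of HEK UL1 KO (1.09 to 1.34). The other HEK WT libraries had 0.690 and 0.622, so without replicate 3 the factors differ by genotype.

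The difference between the genotype effects in NO and CN was tested as an interaction over all 12 libraries. None of the 64 genes tested was called in either direction by edgeR, and none by DESeq2. Over all 37806 genes 0.0846% were called with a higher and 0.0291% with a lower effect in NO. At an unadjusted p under 0.05, 2 genes, SCARNA26A (-0.72) and SCARNA21 (-1.06), had a lower effect in NO, beside 2.02% of all genes, and 0 had a higher one. Both genes were named after their values were seen. A decrease confined to CN was not shown.

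The comparison of NO with CN shows where each RNA was recovered. In HEK WT, 16 of 62 genes were higher in NO and 1 was lower, beside 31.9% and 20.9% of all 29340 genes. Of the 16, 14 were scaRNAs, out of 25 tested. In HEK UL1 KO, 16 of 57 genes were higher and 1 lower, beside 40.7% and 35.6% of all 34468 genes, and 11 of the 16 were scaRNAs, out of 23 tested. In both genotypes the share of these genes called higher lay below that of all genes. For scaRNAs alone it lay near that of all genes in HEK UL1 KO and above it in HEK WT, so the counts are a description. Median log2 differences between NO and CN were 0.91 in HEK WT and 0.53 in HEK UL1 KO for scaRNAs, 0.26 and -0.08 for U1 genes and 0.17 and 0.27 for other snRNA genes. For SNORD genes the medians were 3.63 and 3.02 and for SNORA genes 3.38 and 3.23. All of these values are relative to the other RNAs of a fraction, and every gene tested was lower in NO when libraries were scaled by snoRNA counts.

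SCARNA9L had the highest value of the scaRNAs tested in both genotypes, and SCARNA28 and SCARNA10 are further examples. SCARNA9L had 3.52 ± 0.28 CPM in NO and 0.661 ± 0.119 CPM in CN of HEK WT (2.41, SE 0.22, adjusted p = 0.000316, edgeR; SD, n = 3). In HEK UL1 KO it was 2.43 ± 0.61 against 0.775 ± 0.120 CPM (1.67, SE 0.22, adjusted p = 0.000108, edgeR). SCARNA28 differed by 1.61 (SE 0.20) in HEK WT and 1.22 (SE 0.14) in HEK UL1 KO, and SCARNA10 by 1.45 (SE 0.22) and 0.95 (SE 0.16). These 3 did not overlap between fractions in either genotype.

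Within the minor spliceosome the RNAs were distributed differently. U11 was higher in NO by 1.33 (SE 0.31, adjusted p = 0.00697, edgeR) in HEK WT and by 1.38 (SE 0.30, adjusted p = 0.00153, edgeR) in HEK UL1 KO. U6atac was lower in NO, with 12.2 ± 6.0 CPM against 26.6 ± 6.9 CPM in HEK WT (-1.13, SE 0.33, adjusted p = 0.0172, edgeR; SD, n = 3) and -0.94 (SE 0.37, adjusted p = 0.0341, edgeR) in HEK UL1 KO. U12 was higher in NO of HEK UL1 KO by 1.04 (SE 0.24, adjusted p = 0.00235, edgeR), with 0.76 (SE 0.32, adjusted p = 0.0700, edgeR) in HEK WT. U4atac gave 0.78 (SE 0.27, adjusted p = 0.0214, edgeR) in HEK UL1 KO and 0.42 (SE 0.31, adjusted p = 0.284, edgeR) in HEK WT. The 3 with higher values and U6atac each turned or stayed negative when scaled by snoRNA counts.

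**Figure D5:**
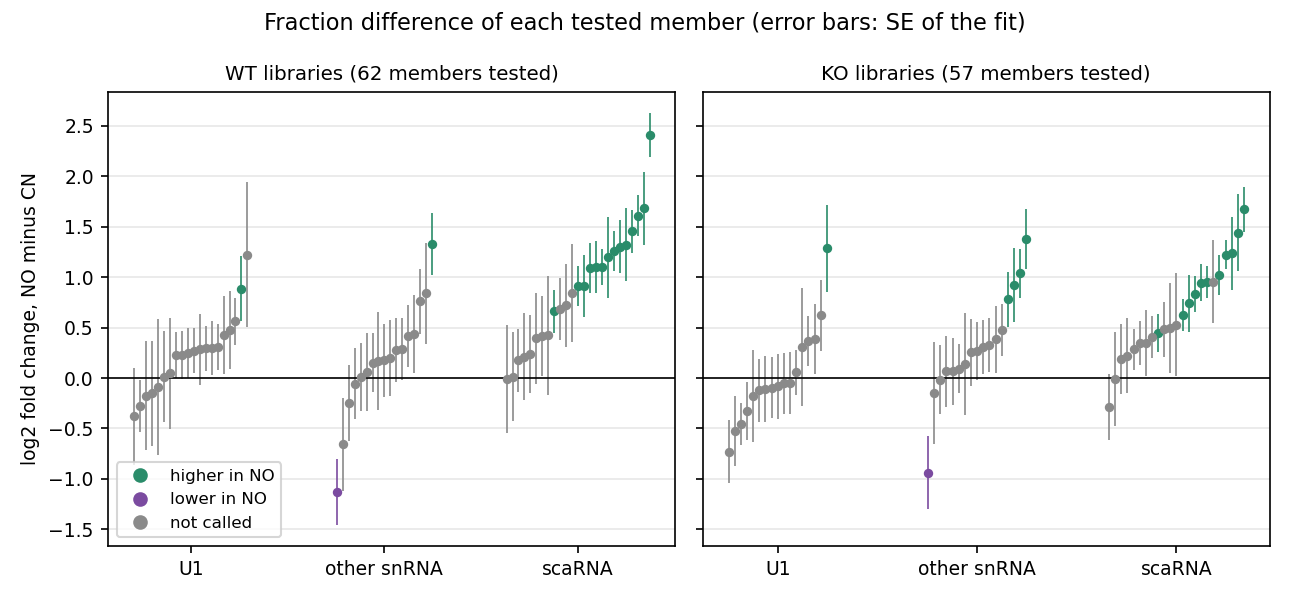
Log2 difference between NO and CN of each gene tested, by class, in HEK WT and in HEK UL1 KO. The scaRNA genes lie mostly above 0, with SCARNA9L at 2.41 in HEK WT and 1.67 in HEK UL1 KO, and U6atac lies at -1.13 and -0.94.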

How the data were processed

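Counts of 12 libraries were analysed, 3 for each genotype in each fraction. The authors deposited raw, unnormalised counts for each gene, with NO and CN in separate tables. Per the paper's methods and the submitters' processing notes, reads were checked with FastQC 0.11.4, trimmed with cutadapt 3.7, aligned to GRCh38 with STAR 2.7.8 with up to 20 alignments per read, counted with featureCounts and compared with DESeq2. The options for reads that fit several genes, the strand setting and the annotation version were not given in the sources used here. All columns were matched by their labels (0 unmatched).

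The genotypes were compared in each fraction, and NO with CN in each genotype, by edgeR's quasi-likelihood F test (edgeR 4.0.16, limma 3.58.1, R 4.3.3) after filterByExpr (minimum count 10, minimum total count 15) and TMM scaling over all genes. Benjamini-Hochberg adjustment covered all genes tested, and an adjusted p under 0.05 was called. P values measure the spread between these libraries. The interaction was fitted over all 12 libraries, class sums replaced the genes of a class, and ratios were compared with exact permutation tests. DESeq2 1.42.0 was an alternative. Code was tested on simulated data, and figures used Python 3.11.15 and matplotlib 3.10.9.

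Named genes were a list of single snRNA copies, the most abundant U1 variant, the 5 members with the largest called change in each genotype comparison with a mean of at least 50 counts, scaRNAs tested in both fractions, up to 3 called genes per pathway list and direction, and HNRNPUL1, SNORD3A, GAPDH and other short RNAs. RNVU1-3, RNVU1-19, further U5 and U6 copies, pseudogene rows, host genes and the genes of the interaction were named outside it, after their values were seen. The members and lists were chosen with earlier results of these data known. Same-numbered libraries did not deviate together (mean r from -0.300 to -0.148 in the 4 comparisons), so no block was used. Alternatives that scaled by U1 counts or summed pseudogene and copy rows were chosen after seeing the data. The ratio to U1 and its permutation test were not among the planned results. Some sequences are not reported here.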

Additional observations from a re-analysis of the deposited data

How the results depend on the processing

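In CN the number of lower members ran from 17 (copies of a class summed) to 39 over all settings and from 21 to 28 when 1 library was left out. Higher members were 1 with no filter and 1 with at least 10 counts in every library, and 0 to 1 with 1 library left out. The summed U1 counts gave 0.0099 (total counts), 0.012 (snoRNA counts as library size) and -0.55 (GAPDH, adjusted p = 0.0214, edgeR). GAPDH itself was higher in HEK UL1 KO CN (0.34), and scaling by it moved the median of all genes to -0.31. In one fit of all 12 libraries U2 gave -1.22 and U6 -1.001 and were not called. In NO the number of lower members was 5 with DESeq2, 2 with DESeq2 size factors in edgeR, 8 with no filter and 5 with all 12 libraries in one fit. It was 0 with total counts, 1 reference gene (2 higher), snoRNA counts, U1 counts and at least 10 counts in every library, and 0 to 29 with 1 library left out. The NO sums of U1 were 0.025 (total counts), 0.42 (1 reference gene) and 0.40 (snoRNA counts), and of U5 0.021 and 0.083 with the last 2. With 1 library left out the NO sums ran from -1.64 to -0.51 for U4, from -1.24 to -0.23 for U5 and from -1.48 to -0.22 for U6, and the 3 were called without HEK WT replicate 3. Between fractions, members lower in NO of HEK WT were 2 with no filter, 0 with at least 10 counts and 1 to 4 with 1 library left out. In HEK UL1 KO, members lower were 3 with DESeq2 size factors, 4 with no filter, 0 with at least 10 counts and 0 with total counts (40 higher), and with 1 library left out 10 to 18 were higher and 0 to 2 lower. Scaled by snoRNA counts, 0 were higher and 62 lower in HEK WT, and 0 higher and 57 lower in HEK UL1 KO. Values were then -3.42 and -2.60 for RNU11, -3.99 and -2.88 for RNU12, -4.34 and -3.14 for RNU4ATAC, -2.30 and -2.35 for SCARNA9L, -3.11 and -2.75 for SCARNA28 and -3.28 and -3.02 for SCARNA10 in HEK WT and HEK UL1 KO. The sums were -4.43 (U1), -4.70 (U2), -4.67 (U4), -4.51 (U5) and -4.56 (U6) in HEK WT and -3.49 (U4), -3.41 (U5) and -3.90 (U6) in HEK UL1 KO. The scaling sets these values by construction, and other causes were not tested. In 307 further checks the direction and call of a class sum were as reported, or a number of calls lay within 1.5 times the reported one.

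With the replicate block, which the labels' numbers alone supply, 2 members were lower in NO and 25 in CN, and 11 in HEK WT and 15 in HEK UL1 KO were higher in NO than in CN. SCARNA7 in NO was then not called (adjusted p = 0.131, edgeR), SCARNA1 and SCARNA8 in NO were, and SCARNA18 and SCARNA4 in CN were not.

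The limits are the 3 libraries per group, the wide spread in NO, reads shared between copies, and mean counts under 50 per library for several scaRNAs and rare U1 variants, where a difference can go unseen. All HEK UL1 KO libraries come from the same edited line. The knockout therefore cannot be told apart from other differences between that line and HEK WT. Neither the recovery of short RNAs nor absolute amounts were measured.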
